A study of Arabidopsis thaliana with 8 samples.

Results

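The stomatal lineage regulators are 10 Arabidopsis thaliana genes whose products decide where and how leaf epidermal cells become stomata. They were taken by locus: SPCH (AT5G53210), MUTE (AT3G06120), FAMA (AT3G24140), EPF2 (AT1G34245), EPF1 (AT2G20875), EPFL9 (AT4G12970), TMM (AT1G80080), SDD1 (AT1G04110), BASL (AT5G60880) and YDA (AT1G63700). The arrays carried 11 probes for them, 2 for BASL and 1 for each of the others, among 22099 genes tested in all. Transcript levels were measured in seedlings of ecotype Col-0 on 8 single-colour Agilent arrays. The bil1-1D group (4 arrays) was the mutant bil1-1D/bzr1-1D, a dominant allele of BZR1, the transcription factor at the end of brassinosteroid signalling, and it received 1 µM brassinolide, an active brassinosteroid, for 3 hours. The wild-type group (4 arrays) received the solvent DMSO for 3 hours. Both groups had grown for 14 days with 1 µM brassinazole, which blocks brassinosteroid synthesis and so keeps the plant's own hormone low.

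Stomata are pores bordered by a pair of guard cells, and they arise through a short series of divisions in the young epidermis. SPCH starts the asymmetric divisions, MUTE ends them and commits a cell to the guard mother cell fate, and FAMA sets the last division and guard cell identity. The secreted peptides EPF2 and EPF1 restrain this series through receptor kinases of the ERECTA family and TMM, EPFL9 competes with them and promotes stomata, and the kinase YDA carries the inhibitory signal to MAP kinases that destabilise SPCH. BASL marks one side of the dividing cell. Brassinosteroid signalling meets this pathway at the kinase BIN2, which is known to phosphorylate YDA and SPCH.

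Responses to brassinosteroid are the subject of the series, and 1 comparison is possible, in which genotype and treatment differ together. Each group also lay on a slide of its own, so slide, genotype and treatment cannot be told apart. Whether the replicates were grown separately is not stated in the labels, and the p-values therefore describe no more than the scatter of these samples, which could be technical. The bil1-1D slide was dimmer. Its arrays had a 75th percentile of 3033 to 3821 intensity units, against 4638 to 6153 on the other slide, and 74.5% to 75.8% of their spots exceeded background clearly, against 79.5% to 80.6% for the wild type. The scanner software marked 3 arrays for evaluation, bil1-1D replicate 4 and wild-type replicates 1 and 2. The bil1-1D allele changes the BZR1 protein, so a transcript level does not check the genotype labels. No spot was saturated, and the number of arrays limits the precision. Levels below are normalized log2 signal, where 0 is the 75th percentile of an array, and they are not comparable between probes. Changes are log2 fold changes of bil1-1D with brassinolide over wild type with DMSO ± SE, with the Benjamini-Hochberg adjusted p of limma over all genes tested.

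Of the 10 regulators, 4 rose (BASL, TMM, EPF1 and SPCH), 1 fell (EPF2) and 5 did not pass the threshold of 0.05 (MUTE, FAMA, EPFL9, SDD1 and YDA). Across the arrays 55.9% of genes were called, 30.2% upward and 25.7% downward, so a count of 5 called members lies near the background and says nothing particular about the list. The split of calls moved with the scaling: 6677 genes rose and 5670 fell as reported, 1413 rose and 2972 fell with spike-in scaling, and 3975 rose and 5076 fell with normexp. The median change of all genes was -0.09 with spike-in scaling and -0.17 with normexp. As reported, the median change of the regulators was 0.23, against 0.03 over all genes tested. Their changes ran from -0.91 for EPF2 to 1.04 for BASL. The place of the regulators relative to all genes also moved with the processing. With normexp EPF2, MUTE, EPF1, YDA, FAMA and EPFL9 stood below 0 (-1.38, -0.64, -0.60, -0.45, -0.31 and -0.28), and TMM, BASL and SPCH above it (0.62, 0.59 and 0.11). The normexp fit was uneven between the groups. Its fitted background was -934, -1158 and -599 on wild-type replicates 2, 3 and 4. It was 7.99 on wild-type replicate 1 and 4.47 to 13.6 on the bil1-1D arrays. This applies to every normexp value given here, and its part in those values was not tested. BASL was the only member past the threshold with a change of at least 2-fold, a size reached by 8.1% of all genes (3.08% upward and 5.02% downward). The groups did not overlap for 4 members, BASL, TMM, EPF1 and EPF2, against 52.1% of genes over all. All 10 members were well above background on all 8 arrays. The samples were whole seedlings, in which fewer cells of a type and less RNA per cell cannot be told apart.

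**Figure D1:**
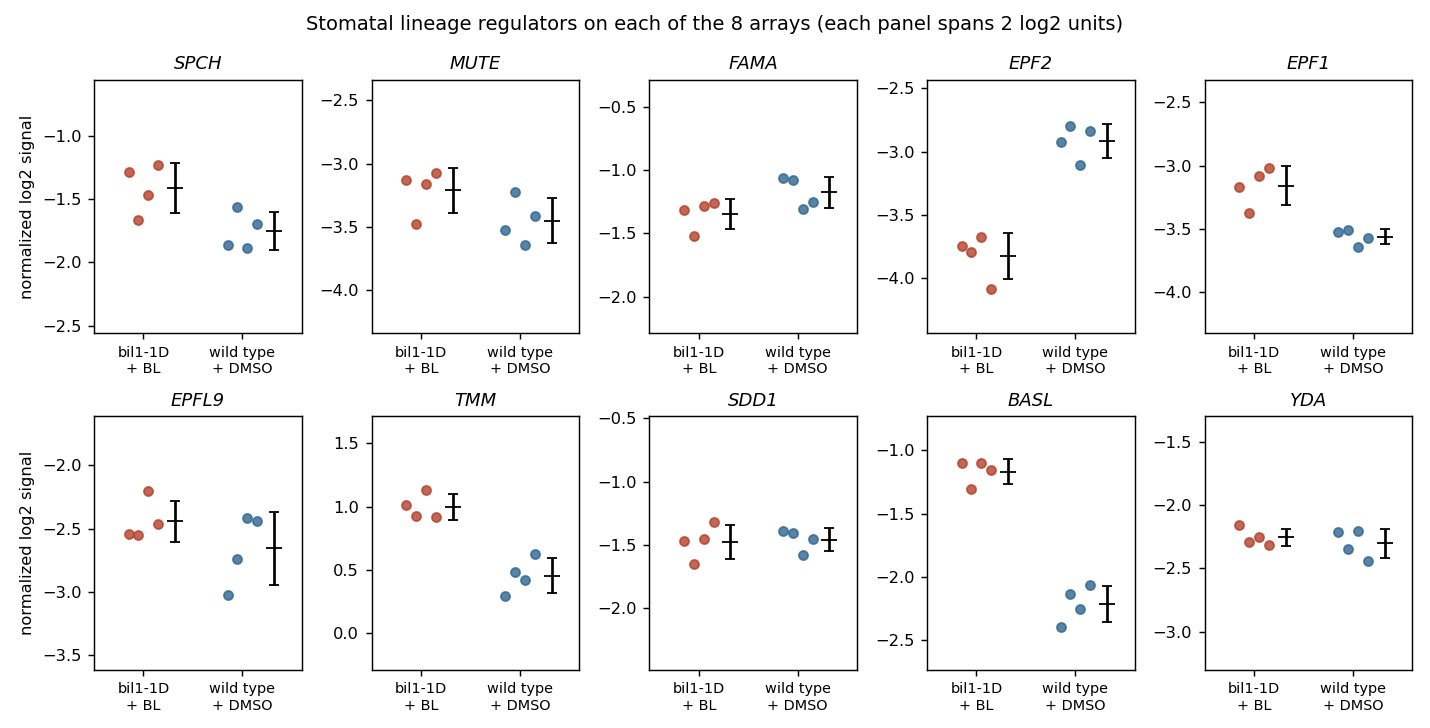
Normalized log2 signal (vertical axis, 0 is the 75th percentile of an array) of each regulator on the 4 bil1-1D arrays with brassinolide and the 4 wild-type arrays with DMSO. Points are arrays, replicates 1 to 4 from left to right, and the black bar is the mean ± SD. The groups separate in BASL, TMM, EPF1 and EPF2 and overlap in the other 6 genes.

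Of the bHLH genes that drive the successive steps, SPCH passed the threshold, and MUTE and FAMA did not. SPCH, the factor that starts the lineage, read -1.28, -1.67, -1.47 and -1.23 on the bil1-1D arrays, against -1.86, -1.56, -1.89 and -1.70 on the wild-type arrays. Replicate 2 was the lowest of the bil1-1D arrays and the highest of the wild-type arrays, and there the groups overlapped. SPCH rose by a small amount (0.34 ± 0.11, adjusted p = 0.0339). This call was weak: it was lost without bil1-1D replicate 1, 3 or 4 and without wild-type replicate 1, 3 or 4 (adjusted p up to 0.0847), with scaling to spike-in RNAs (0.22, adjusted p = 0.574), with the normexp background correction (0.11, adjusted p = 0.593) and without the 3 arrays marked for evaluation (0.32, adjusted p = 0.12). Without those arrays 3 regulators rose and 1 fell.

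MUTE, which commits cells to the guard mother cell fate, read -3.13, -3.47, -3.16 and -3.07 on the bil1-1D arrays, against -3.52, -3.22, -3.64 and -3.41 on the wild-type arrays. The groups overlapped, and MUTE did not pass the threshold (0.24 ± 0.12, adjusted p = 0.109, 95% confidence interval -0.03 to 0.51). It passed without replicate 2 of the bil1-1D group (0.33, adjusted p = 0.0299) or of the wild type (0.32, adjusted p = 0.0486), and with the authors' value table (0.32, adjusted p = 0.038), and it turned to -0.64 with normexp (adjusted p = 0.157). FAMA, which acts last, read -1.31, -1.52, -1.29 and -1.26 on the bil1-1D arrays, against -1.06, -1.08, -1.31 and -1.25 on the wild-type arrays. Its change had the opposite sign and did not pass either (-0.17 ± 0.08, adjusted p = 0.112, 95% confidence interval -0.36 to 0.02).

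Among the secreted peptides, EPF2 and EPF1 went in opposite directions. EPF2, made in early lineage cells and known to hold back entry into the lineage, read -3.75, -3.79, -3.67 and -4.08 on the bil1-1D arrays, against -2.93, -2.80, -3.11 and -2.84 on the wild-type arrays. Every bil1-1D array was below every wild-type array. EPF2 was 1.87-fold lower in the bil1-1D group (-3.82 ± 0.18 against -2.92 ± 0.14, SD, n = 4 each, change -0.91 ± 0.10, adjusted p = 0.000220). The call held under all 22 alternatives run, from -1.38 to -0.76.

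EPF1, which acts later and spaces stomata by orienting divisions, read -3.17, -3.37, -3.08 and -3.02 on the bil1-1D arrays, against -3.52, -3.51, -3.64 and -3.57 on the wild-type arrays. The groups did not overlap, and EPF1 rose (0.40 ± 0.08, adjusted p = 0.00341). The rise lost its call with spike-in scaling (0.28, adjusted p = 0.431) and turned to -0.60 with normexp (adjusted p = 0.174). EPFL9, also named STOMAGEN, is released by mesophyll cells and promotes stomata. It ranged from -2.55 to -2.20 on the bil1-1D arrays and from -3.02 to -2.42 on the wild-type arrays and did not pass (0.21 ± 0.15, adjusted p = 0.25, 95% confidence interval -0.13 to 0.55).

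TMM, the receptor-like protein that gives ERECTA receptors their response to EPF peptides in the leaf, read 1.01, 0.93, 1.13 and 0.92 on the bil1-1D arrays, against 0.29, 0.49, 0.42 and 0.63 on the wild-type arrays. The groups did not overlap. TMM was 1.46-fold higher in the bil1-1D group (1.00 ± 0.10 against 0.46 ± 0.14, SD, n = 4 each, change 0.54 ± 0.08, adjusted p = 0.000884). Its call was lost with spike-in scaling, where the SE was larger (0.42 ± 0.21, adjusted p = 0.167). SDD1, a subtilisin-type protease that limits stomatal number, ranged from -1.65 to -1.32 on the bil1-1D arrays and from -1.58 to -1.39 on the wild-type arrays. Its groups overlapped and it did not pass (-0.02 ± 0.08, adjusted p = 0.867), with a 95% confidence interval of -0.20 to 0.16.

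BASL, the scaffold protein that gathers at one side of an asymmetrically dividing cell, had the largest change of the 10 as reported, while EPF2 had a larger one with spike-in scaling (-1.03 against 0.92), with normexp (-1.38 against 0.59) and with the mean of a gene's probes (-0.91 against 0.84). The brighter BASL probe read -1.10, -1.31, -1.10 and -1.16 on the bil1-1D arrays, against -2.39, -2.14, -2.25 and -2.07 on the wild-type arrays. BASL was 2.06-fold higher in the bil1-1D group (-1.17 ± 0.10 against -2.21 ± 0.14, SD, n = 4 each; change 1.04 ± 0.08, adjusted p = 3.89e-05). Its dimmer probe moved the same way without overlap, at -3.01, -3.18, -3.06 and -3.10 on the bil1-1D arrays, against -3.85, -3.75, -3.73 and -3.55 on the wild-type arrays, and by less (0.63 ± 0.07, adjusted p over all probes = 0.000223). The rise of BASL held its call under all 22 alternatives, from 0.59 to 1.102.

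The dimness of the bil1-1D slide can be read from the signals before any scaling. Of the 11 probes, the brighter BASL probe alone had a higher unscaled signal on every bil1-1D array, 1397 to 1778 intensity units against 973 to 1269 on the wild-type arrays. EPF2 had 204 to 285 units on the bil1-1D arrays and 539 to 809 on the wild-type arrays. FAMA, EPFL9, SDD1 and YDA were also lower on every bil1-1D array before scaling, and the remaining 5 probes overlapped. YDA, the MAP kinase kinase kinase below the receptors, did not pass after scaling, at -2.32 to -2.16 on the bil1-1D arrays and -2.44 to -2.20 on the wild-type arrays (0.05 ± 0.07, adjusted p = 0.589, 95% confidence interval -0.11 to 0.20).

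**Figure D2:**
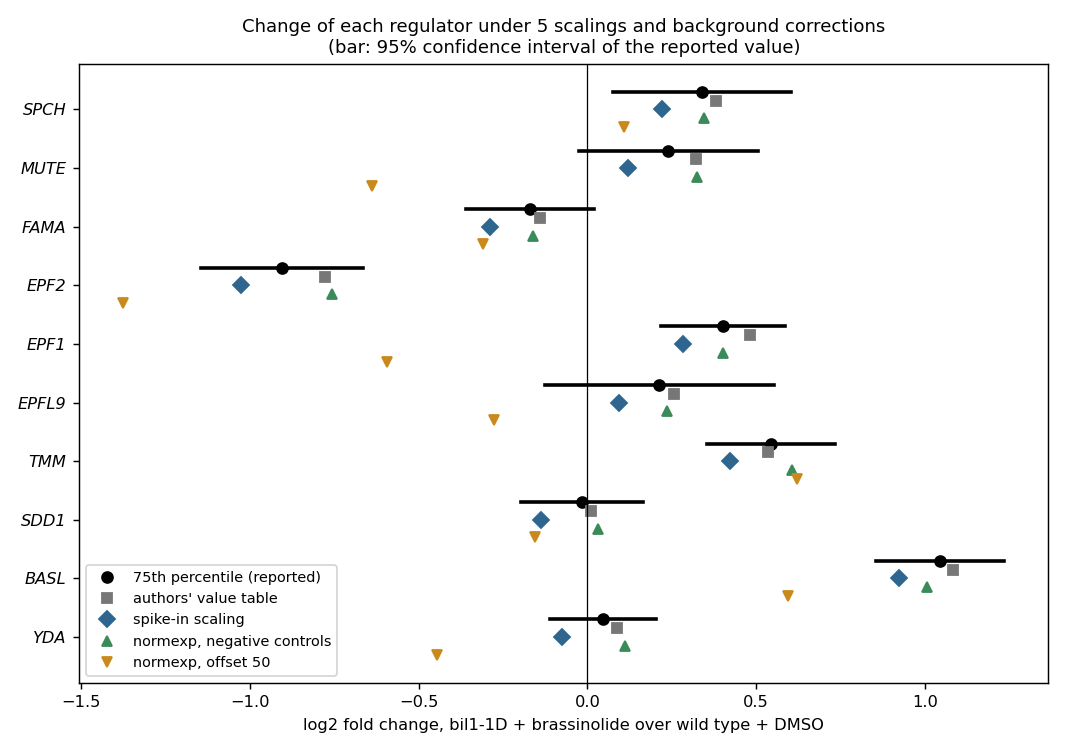
Log2 fold change (horizontal axis, bil1-1D with brassinolide over wild type with DMSO) of each regulator under 5 ways of scaling or background correction. Black points and bars are the reported values with their 95% confidence interval. BASL lies between 0.59 and 1.08 and EPF2 between -1.38 and -0.76, while EPF1 and MUTE lie on both sides of 0.

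In a difference between 2 genes taken within an array, any factor that multiplies the whole array cancels, while quantile scaling and background correction still enter. All 8 pairs of regulators listed in the same class were formed in this way. The classes were bHLH factors, peptides, receptor or protease (TMM and SDD1) and polarity or kinase (BASL and YDA), so paired genes need not act alike. The pairs were formed after the values of the single genes were known, so they are a description with no test. The groups did not overlap in 6 of the 8 pairs, and in 5 of these 6 the sign was kept under every alternative. Many alternatives could not change it. Spike-in and median scaling cancel within an array, and the other filters, the trend and robust fit and the replicate block left these differences as they were. The log2 signal of EPF2 minus that of EPF1 was -1.07 to -0.42 on the bil1-1D arrays and 0.53 to 0.73 on the wild-type arrays, a shift of -1.31 ± 0.15 (SE). EPF2 minus EPFL9 shifted by -1.12 ± 0.20.

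Among the bHLH genes, SPCH minus FAMA was -0.18 to 0.03 on the bil1-1D arrays and -0.80 to -0.45 on the wild-type arrays, a shift of 0.51 ± 0.10. This shift lay between 0.41 and 0.55 under the alternatives. SPCH by itself lay between 0.11 and 0.42 and FAMA between -0.31 and -0.09, so neither gene changed sign. Neither had a call that was the same under all alternatives. MUTE minus FAMA shifted by 0.41 ± 0.08 but turned to -0.33 with normexp. SPCH minus MUTE overlapped between the groups, with a shift of 0.10 ± 0.04.

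In the other classes, TMM minus SDD1 was 2.24 to 2.59 on the bil1-1D arrays and 1.68 to 2.08 on the wild-type arrays, a shift of 0.56 ± 0.12. BASL minus YDA was 0.99 to 1.16 on the bil1-1D arrays and -0.18 to 0.37 on the wild-type arrays, a shift of 1.00 ± 0.13. EPF1 minus EPFL9 overlapped between the groups (0.19 ± 0.18).

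**Figure D3:**
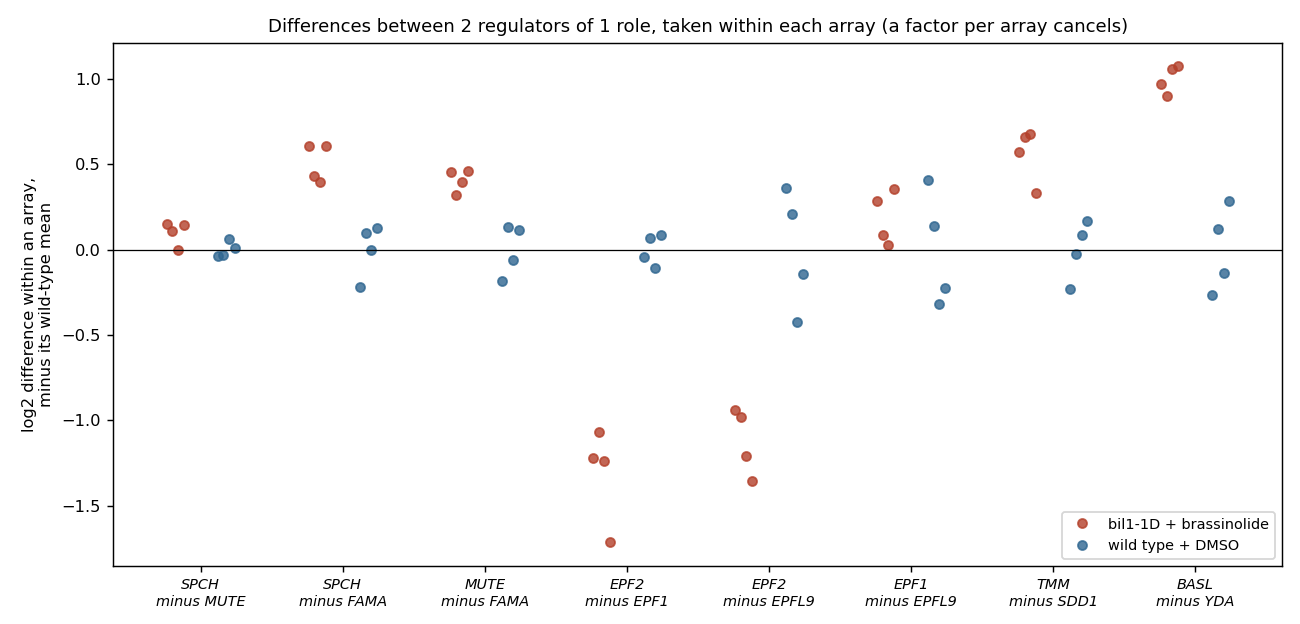
Differences in log2 signal between 2 regulators listed in the same class within each array (vertical axis), set to 0 at the mean of the wild-type arrays. Points are the 4 bil1-1D arrays with brassinolide and the 4 wild-type arrays with DMSO. EPF2 minus EPF1 shows the widest gap between the groups, and SPCH minus MUTE and EPF1 minus EPFL9 overlap.

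Other genes of the pathway were taken as a list of 41, of which 39 were tested. Of these, 18 rose, 5 fell and 16 did not pass, with a median of 0.13. The share called was again near that of all genes. With spike-in scaling, where 19.8% of all genes were called, 6.39% upward and 13.4% downward, 4 of them rose (POLAR, FLP, EPFL1 and ER) and 5 fell (CRSP, EPFL8, BRXL2, MKK7 and BAK1).

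SCRM and SCRM2 are the bHLH partners with which SPCH, MUTE and FAMA form dimers. SCRM (ICE1) did not pass (0.04 ± 0.07, adjusted p = 0.624), and its 3 probes disagreed, at -0.45, 0.04 and 0.37, the lowest of them well above background on 1 of 4 bil1-1D arrays. SCRM2 rose slightly (0.27 ± 0.10, adjusted p = 0.0411). Its call was lost with spike-in scaling (0.15, adjusted p = 0.687), with normexp (0.24, adjusted p = 0.0739), with normexp on negative controls (0.22, adjusted p = 0.076), without the 3 arrays marked for evaluation (0.11, adjusted p = 0.405), and without bil1-1D replicate 2, 3 or 4 or wild-type replicate 1, 2 or 4 (0.21 to 0.30).

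Of the 3 ERECTA receptors, which bind EPF peptides, ER and ERL2 rose. ER read 1.48, 1.37, 1.53 and 1.41 on the bil1-1D arrays, against 0.29, 0.51, 0.96 and 0.83 on the wild-type arrays, and was 1.74-fold higher (0.80 ± 0.14, adjusted p = 0.00176). ERL2 was higher as well (0.57 ± 0.08, adjusted p = 0.000541), with a call lost under spike-in scaling (0.45, adjusted p = 0.168) and normexp (-0.04, adjusted p = 0.897). ERL1 did not pass (-0.0012 ± 0.09, adjusted p = 0.992). Of the SERK co-receptors, SERK1 rose, BAK1, which is also the co-receptor of the brassinosteroid receptor, fell (-0.56 ± 0.08, adjusted p = 0.000852), and SERK2 and BKK1 did not pass. A dimmer probe of BKK1 rose (0.35, adjusted p over all probes = 0.0461).

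Of 7 tested peptide and protease genes, 3 rose and 2 fell. EPFL1 rose (0.89 ± 0.09, adjusted p = 0.000107) but turned to -0.47 with normexp, and EPFL4 and EPFL5, ligands of the ERECTA family known mainly from stem growth, rose as well. EPFL2 and EPFL6 did not pass. CRSP, a secreted subtilisin protease known to process pro-EPF2, fell to -2.51, -2.53, -2.39 and -2.52 on the bil1-1D arrays, against -0.82, -0.63, -0.29 and -0.61 on the wild-type arrays. CRSP was 3.74-fold lower (-1.90 ± 0.10, adjusted p = 7.35e-06), a larger change than that of any of the 10 regulators. EPFL8 was not well above background on any bil1-1D array (-9.14 ± 0.71, SD, n = 4) and well above it on the 4 wild-type arrays (-5.90 ± 0.37). It was at least 3.01-fold lower, where the bound sets the wild-type mean against a ceiling for each bil1-1D array. That ceiling is the higher of the EPFL8 signal and the lowest signal well above background on the array. EPFL8 entered the test through the wild-type arrays alone. Its call as fallen (adjusted p = 0.000162 in limma) rests on the dim values and does not test the bound. The bound holds for the reported background correction, since with normexp on negative controls the change of EPFL8 was -0.71.

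Of 6 MAP kinase genes below YDA, MKK9 (0.61 ± 0.11, adjusted p = 0.00203) and MPK3 rose, MKK7 fell (-0.56 ± 0.12, adjusted p = 0.00385), and MKK4, MKK5 and MPK6 did not pass. The second probe of MKK9 stood at 0.02, and its call was lost with the mean of the probes (0.31, adjusted p = 0.0687) and with spike-in scaling (0.49, adjusted p = 0.145).

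Polarity genes included the largest rise of the list. POLAR, which encodes a protein that joins BASL at the cell side and is known to hold BIN2 there, read -1.06, -1.29, -1.12 and -1.10 on the bil1-1D arrays, against -2.53, -2.59, -2.58 and -2.34 on the wild-type arrays. POLAR was 2.58-fold higher (1.37 ± 0.08, adjusted p = 7.39e-06), and kept its call under all 22 alternatives, from 0.84 to 1.42. BRXL2, a further partner of BASL, fell (-0.56 ± 0.06, adjusted p = 0.000118) on both of its probes. The phosphatase gene BSL3 and the kinase gene BIN2 rose, and BSL1 and BSL2 did not pass. A dimmer probe of BSL3 did not pass (0.03, adjusted p over all probes = 0.852).

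Of 7 genes of the late divisions, 4 rose and 3 did not pass. FLP, a MYB factor that stops guard mother cells after their single symmetric division, was 2.10-fold higher (1.07 ± 0.09, adjusted p = 4.16e-05), while its second probe moved by 0.28 (adjusted p over all probes = 0.0184) and its call was lost with normexp (0.42, adjusted p = 0.198). MYB88, the close relative that shares this work, rose on its brightest probe, but its 4 probes disagreed, at -0.71, 0.11, 0.39 and 0.53. CYCA2;3 and CDKB1;1, which promote that division, rose. CYCD7;1, CYCD5;1 and RBR1 did not pass, and CYCD7;1 was not well above background on any bil1-1D array. A dimmer probe of RBR1, also not well above background on any bil1-1D array, fell (-0.96, adjusted p over all probes = 0.00778). Of 4 upstream genes, AGL16 (0.45 ± 0.06, adjusted p = 0.000414) and IDD16, which is known to repress SPCH, rose, and HDG2 and COP1 did not pass. A dimmer probe of HDG2, not well above background on any bil1-1D array, fell (-1.92, adjusted p over all probes = 0.00229). The call of AGL16 was lost with spike-in scaling (0.33, adjusted p = 0.344).

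**Figure D4:**
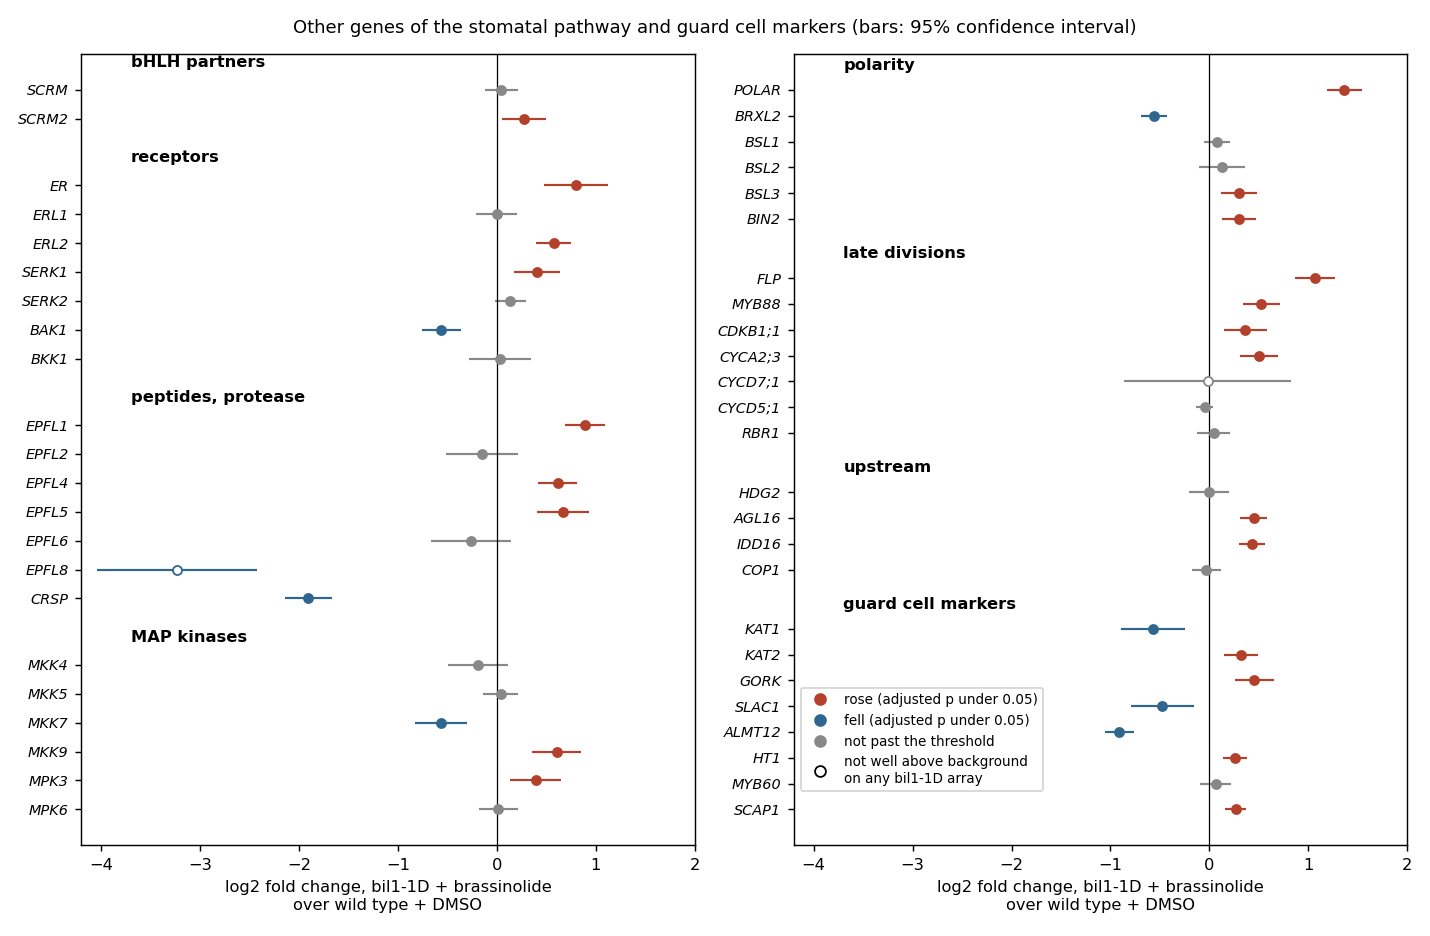
Log2 fold changes (horizontal axis, bil1-1D with brassinolide over wild type with DMSO) of 39 further genes of the stomatal pathway and 8 guard cell markers, grouped by role. Bars are 95% confidence intervals. Open points are genes not well above background on any bil1-1D array, whose plotted value depends on dim signal. POLAR and FLP lie highest, CRSP and EPFL8 lowest, and guard cell markers lie on both sides of 0.

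Markers of guard cells, the end product of the lineage, were called in both directions. Of 8 guard cell markers, 4 rose, 3 fell and 1 (MYB60) did not pass, where 55.9% of all genes were called. All 8 were well above background on every array. The second probe of MYB60 rose (0.46, adjusted p over all probes = 0.000473), and with the mean of probes 5 markers rose. The anion channel genes ALMT12 (-0.91 ± 0.06, adjusted p = 2.08e-05) and SLAC1 (-0.48 ± 0.14, adjusted p = 0.0184) and the potassium channel gene KAT1 (-0.57 ± 0.14, adjusted p = 0.00931) fell, and the call of SLAC1 was lost with quantile scaling, normexp on negative controls and the authors' value table. The potassium channel genes GORK (0.46 ± 0.09) and KAT2 (0.32 ± 0.07), the kinase gene HT1 (0.26 ± 0.05) and the transcription factor gene SCAP1 (0.27 ± 0.05) rose by 1.37-fold at most, and 0 of these 4 were called upward with spike-in scaling or with normexp. The summed normalized signal of the 8 markers, in units of the 75th percentile, was 1.55 to 1.69 on the bil1-1D arrays and 1.63 to 1.79 on the wild-type arrays, which overlap.

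Of 4 markers of the epidermis as a whole, 3 rose and 1 fell. PDF2, a homeodomain factor of the epidermis, rose (0.66 ± 0.07, adjusted p = 0.000163) with a call lost under spike-in scaling (0.54, adjusted p = 0.0607), and FDH fell (-0.32 ± 0.05, adjusted p = 0.00118) on a probe that its second probe contradicts (0.56). The summed signal of the 4 was 19.6 to 21.8 on the bil1-1D arrays and 15.96 to 18.02 on the wild-type arrays, without overlap. The part of this shift in the rises of BASL, TMM, EPF1 and SPCH was not tested.

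Markers of other tissues are given by their brightest probe, against the same 55.9% of all genes called. The shoot meristem gene STM rose (1.14 ± 0.24, adjusted p = 0.00438; -0.05 with normexp), CLV3 did not pass, and WUS was not tested because it was not well above background. Of 4 vascular markers, 2 fell, among them XCP1 (-0.38), and of 6 root markers, 2 fell, among them PIN2 (-0.92 ± 0.23, adjusted p = 0.0094). Of 3 mesophyll markers, RBCS1A rose (0.18), RCA fell (-0.21) and CA1 did not pass, although 7 of the 8 probes of CA1 fell (adjusted p over all probes under the threshold), by as much as -2.72. In the trichome list, 0 of 4 markers passed in limma, where 1 had an unadjusted p under 0.05. The reported calls of XCP1, RBCS1A and RCA were weak. Of 22 alternatives, 8 ended that of XCP1 (5 of them by leaving out 1 array). For RBCS1A 9 ended or reversed the call (4 by leaving out 1 array), and for RCA 13 ended it (6 by leaving out 1 array). In the fit over all probes, however, 9 of the 9 probes of RCA fell past the threshold, by as much as -0.94. The 13 probes of RBCS1A disagreed, where 5 rose and 1 fell. The summed signals of the trichome, mesophyll and root markers overlapped between the groups. Those of the vascular markers did not overlap, by a narrow gap, at 3.94 to 4.47 on the bil1-1D arrays and 4.49 to 5.99 on the wild-type arrays. The sum of STM and CLV3 did not overlap either, at 0.13 to 0.24 on the bil1-1D arrays and 0.06 to 0.11 on the wild-type arrays. Such a sum follows the brightest probes of its list. All mesophyll and root markers were well above background on every array.

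The genes most like the bHLH regulators over the 8 arrays were sought among 20966 genes well above background throughout, by the Euclidean distance between mean-centred log2 values. Nearest to SPCH were AT1G67510 at 0.18, DEL1 (AT3G48160) at 0.181 and ROP9 (AT4G28950) at 0.185. AT1G67510 was also nearest to MUTE at 0.124, followed by AT1G19190 at 0.173 and AT2G24170 at 0.176. Nearest to FAMA were AT4G17420 at 0.075, OEP37 (AT2G43950) at 0.123 and ABCI20 (AT5G02270) at 0.125. With 8 arrays in 2 groups these distances rest on small differences between arrays, and they are given as a description.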

How the data were processed

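Total RNA of 8 Arabidopsis seedling samples was labelled with Cy3 and hybridised to 1-colour Agilent arrays, 1 sample an array, per the labels' protocols. The deposited scanner files hold the processed signal, an intensity on a linear scale that Feature Extraction had already background-corrected, per the file headers, which give version 11.5.1.1; the submitters' processing notes give 9.1.3.1. The deposited value table holds the natural log of these signals after quantile normalization, as judged from the values, since its slope against the log of the scanner signal was 0.983 to 1.01 and all columns hold the same set of values; its centring (each column's median is -0.97) stays unknown.

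Outlier spots (93 in all) were dropped and spots of a probe were averaged. Each signal was expressed as a ratio to its array's 75th percentile, floored at 0.001 and converted to log2. Probes were named through RefSeq locus tags: of 43603 probes, 36160 matched 1 locus and 7443 none. Probes entered the test when flagged well above background throughout at least 1 group, and the brightest such probe stood for its gene. Groups were compared with limma 3.58.1 (lmFit, eBayes) in R 4.3.3, adjusting p-values by Benjamini-Hochberg across 22099 genes (threshold 0.05). The procedure was tested on simulated data of 22072 genes, where 67 were changed by 0.5, 67 by 1 and 66 by 2 log2 units. Of these, 59.7%, 77.6% and 93.9% were recovered, and 9.41% of the calls were false. Far fewer genes changed there than were called in the data, so these rates need not hold for the reported calls. Similar genes and pairs of regulators were computed in Python 3.11.15.

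Alternatives were quantile, median and spike-in scaling (8 probes), the authors' value table, normexp background correction (offset 50, on local background or on negative controls), other filters, the mean of a gene's probes, trend and robust fits, a replicate block, array weights, and leaving out each array or the 3 arrays marked for evaluation. Normexp used the median spot signal.

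The members and lists were chosen with earlier results of these data known. Beside the members, genes named with values were the called gene with the largest change in each direction in each role of the pathway list, those called with at least a 2-fold change, SCRM, SCRM2 and the ERECTA receptors, all called guard cell markers and the largest called rise and fall of each other marker list. The marker lists covered guard cells, epidermis, trichomes, mesophyll, root, vascular tissue and shoot meristem. EPFL3 and EPFL7 had no probe matched here. No probe or gene sequence was used here.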

Additional observations from a re-analysis of the deposited data

Results flagged for a closer look

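The 10 regulators and 29 other named genes were screened in each of the 2 groups. In 2 cases 1 array of a group of 4 stood apart from the others by more than Dixon's 95% critical value. Chance exceeds that value in about 1 in 20 groups, so 2 cases are no more than chance would give over this many groups. CRSP read -2.39 on bil1-1D replicate 3, above -2.51, -2.52 and -2.53 on the other bil1-1D arrays. SCAP1 read -3.26 on wild-type replicate 1, above -3.32, -3.32 and -3.33 on the other wild-type arrays.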

How the results depend on the processing

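BASL and EPF2 kept their direction and call under all 22 alternatives. Spike-in scaling and normexp changed the most. Spike-in scaling also raised the SE, from 0.11 to 0.22 for SPCH, from 0.08 to 0.22 for EPF1 and from 0.08 to 0.21 for TMM. With spike-in scaling 1413 genes rose and 2972 fell, 1 regulator, 4 genes of the pathway list and 0 guard cell markers rose, and SPCH stood at 0.22, EPF1 at 0.28, TMM at 0.42, YDA at -0.074 and SCRM at -0.075. With normexp 3975 genes rose, 2 regulators rose and 2 fell, 7 pathway genes and 0 guard cell markers rose, and SPCH stood at 0.11, MUTE at -0.64, FAMA at -0.31 (adjusted p = 0.0205 in limma), EPF1 at -0.60, EPFL9 at -0.28, YDA at -0.45, ERL2 at -0.035, EPFL1 at -0.47, KAT2 at -0.046, GORK at -0.085, HT1 at -0.54, SCAP1 at -0.62 and STM at -0.054. Its fitted background was -599 to -1158 on wild-type replicates 2, 3 and 4 and 4.47 to 13.6 on the other 5 arrays. MUTE passed with quantile scaling (0.33), normexp on negative controls (0.33) and the authors' value table (0.32). SPCH lost its call with array weights (0.26) and without the 3 arrays marked for evaluation (0.32), where 2 guard cell markers rose and EPFL9 stood at -0.0068.

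Other changes of sign were those of SDD1 with quantile scaling (0.0094), median scaling (0.041), normexp on negative controls (0.032) and the value table (0.0096); ERL1 under the same 4 (0.13, 0.056, 0.15 and 0.12); RBCS1A with quantile scaling (-0.0097) and the value table (-0.019); and SCRM (-0.011) and FDH (0.12) with the mean of probes. Of these, RBCS1A and FDH were calls as reported (0.18 and -0.32). Leaving out 1 array at a time gave 0.28 to 0.42 for SPCH, 0.18 to 0.33 for MUTE, -0.068 to 0.041 for SDD1, -0.00084 to 0.079 for YDA, -0.061 to 0.077 for ERL1 and -0.00060 at the lowest for SCRM. Causes were not tested. With the replicate number as a block SPCH lost its call (0.34, adjusted p = 0.0785) and 3 regulators rose. Deviations of same-numbered arrays from their group means correlated at -0.28 to 0.17. So few values cannot decide whether the numbers pair the arrays. Same-numbered arrays also held the same position on their slides. For the 29 named genes outside the 10, 561 values under alternatives kept direction and call, 54 kept direction only and 22 changed sign. A slide block could not be fitted because each slide holds 1 group, and EPFL8 has no value where a probe must be above background on all 8 arrays.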
